A study of Mus musculus with 8 samples.

Results

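This account follows 10 genes of the CCN proteins and the YAP-TEAD pathway through the left ventricles (LVs) of mice infused with angiotensin II (angII). The genes are *Ctgf*, *Cyr61*, *Nov*, *Wisp1* and *Wisp2*, which encode secreted CCN proteins, and *Yap1*, *Wwtr1*, *Tead1*, *Amotl2* and *Lats2*, which encode parts of the pathway that switches CCN genes on. They were chosen by name, with earlier results of these data known, and make up 10 of the 46040 genes in the table of counts. RNA was sequenced from cardiac tissue of the LV on day 14 of angII infusion at 0.1 mg/kg/h, given by osmotic minipump to all mice to induce left ventricular hypertrophy (LVH). All mice were C57BL/6 males of 5 to 7 months, either VEGFR-1 TK-/-, whose *Flt1* allele lacks the intracellular tyrosine kinase domain of VEGFR-1 in every cell, or littermate controls. No untreated LV was analysed here, and the tissue came from mice alive at the end of the infusion. The sources of genotype disagree, since the title of every library gives the opposite genotype to its tag and its name in the table. The 4 control-tagged libraries and the 4 VEGFR-1 TK-/--tagged libraries (TK-tagged) were grouped by the names in the table, and with the titles every direction given here would be the opposite.

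CCN proteins are small modular proteins of the extracellular matrix that bind integrins and growth factors and shape adhesion, fibrosis and angiogenesis. Many of their genes respond to stretch and to angII through the coactivators YAP and TAZ, which cannot bind DNA themselves and act through the TEAD transcription factors. The Hippo kinases LATS1 and LATS2 phosphorylate YAP and TAZ and keep them out of the nucleus, so that the activity of the pathway is set largely on the protein and is only partly visible in RNA. In the heart, YAP is known for the growth of the fetal myocardium, and CTGF, the product of *Ctgf*, is widely used as a marker of fibrotic and hypertrophic remodelling.

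Between 11449137 and 16239670 counts per library fell on genes, so that a normalised CPM of 1, the unit of abundance used here after TMM scaling of the libraries, stood for 11.3 to 14.9 reads. *Wisp1* and *Nov* had the fewest reads of the 10 genes, with 14 to 33 and 35 to 74 per library. *Flt1*, the targeted gene, was at 69.2 in the control-tagged and 157 normalised CPM in the TK-tagged libraries on average. This does not settle the genotypes because reads of the removed domain were not counted apart. *Acta1* averaged 4764 normalised CPM in the control-tagged and 1674 in the TK-tagged libraries, and *Ankrd1* averaged 3851 and 2175. Both were thus lower in the TK-tagged group. The study reports both genes as upregulated in LVs of mice without the kinase domain. Grouping by the titles would give that direction for both, and which labels are right was not tested. Ventricular muscle dominated every library: *Myl2*, the ventricular myosin light chain, had 10737 ± 2061 and 12236 ± 2234 normalised CPM (SD, n = 4 per group), and the atrial *Myl7* had a mean of 0.732 and 0.748. The labels do not name the animal behind each library, so p-values measure only the spread between these libraries, which may be technical.

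Set per kilobase of merged exons, the scale on which levels of different genes can be compared, *Ctgf* was the most abundant of the 10 RNAs with 92.7 ± 40.4 normalised CPM per kb over all libraries (SD, n = 8). *Cyr61* came next with 27.8 ± 3.77, then *Wwtr1* with 18.5 ± 1.65, *Yap1* with 12.4 ± 1.15, *Tead1* with 11.6 ± 1.34, *Amotl2* with 10.7 ± 1.40, *Wisp2* with 7.58 ± 3.29, *Lats2* with 6.06 ± 0.672, *Nov* with 1.47 ± 0.379 and *Wisp1* with 0.291 ± 0.106 normalised CPM per kb. The steps from *Ctgf* to *Cyr61*, from *Cyr61* to *Wwtr1*, from *Wwtr1* to *Yap1*, from *Lats2* to *Nov* and from *Nov* to *Wisp1* were larger than the spread between libraries, since the ranges of these neighbours over the 8 libraries did not overlap. That spread leaves out any error in the exon lengths, which also set the order. By normalised CPM alone, the means of *Yap1* and *Tead1* were above those of *Wwtr1* and *Cyr61*. *Yap1*, *Tead1*, *Amotl2*, *Wisp2* and *Lats2* had ranges that overlapped with their neighbour in the order. *Ctgf* was thus also the most variable in absolute terms, and its coefficient of variation over all libraries was 43.6%, beside 43.3% in *Wisp2*, 36.4% in *Wisp1*, 25.8% in *Nov* and 8.96% to 13.5% in the other 6 genes.

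*Ctgf* differed most between the groups, while the means of *Yap1*, *Tead1*, *Cyr61*, *Amotl2* and *Nov* lay close together. All 10 were abundant enough to be tested, with a CPM of 1 or more in 2 or more libraries. By edgeR's quasi-likelihood test with Benjamini-Hochberg adjustment, an FDR under 0.1 together with a 1.5-fold change was reached by 0 of the 10 genes, where 1 of all 13542 genes tested was called (0.00738%). The called gene was *Flt1*, with a log2 fold change of 1.19 and an FDR = 0.00808 by this test. An unadjusted p under 0.05 was found in 1 of the 10, *Ctgf*, which was lower in the TK-tagged libraries, against 8.96% of all genes (5.64% lower and 3.32% higher). A 1.5-fold change irrespective of the test was seen in 2 of the 10, *Ctgf* and *Wisp2*, both lower, against 3.6% of all genes and 2.4% in that direction. By the likelihood ratio test, 1 of the 10 was called, again *Ctgf*, against 0.391% of all genes (0.303% lower), and DESeq2 called the same gene (background 0.293%). The study used the likelihood ratio test too, but reported fewer genes from its own run than the 53 called here. Of the 10 genes 7 had a log2 fold change below 0, against 50.3% of all genes, and in 0 of them were the groups free of overlap, against 4.98% of all genes (2.53% lower and 2.46% higher). The median log2 fold change of the 10 genes was −0.02, beside −0.0012 over all genes tested.

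**Figure D1:**
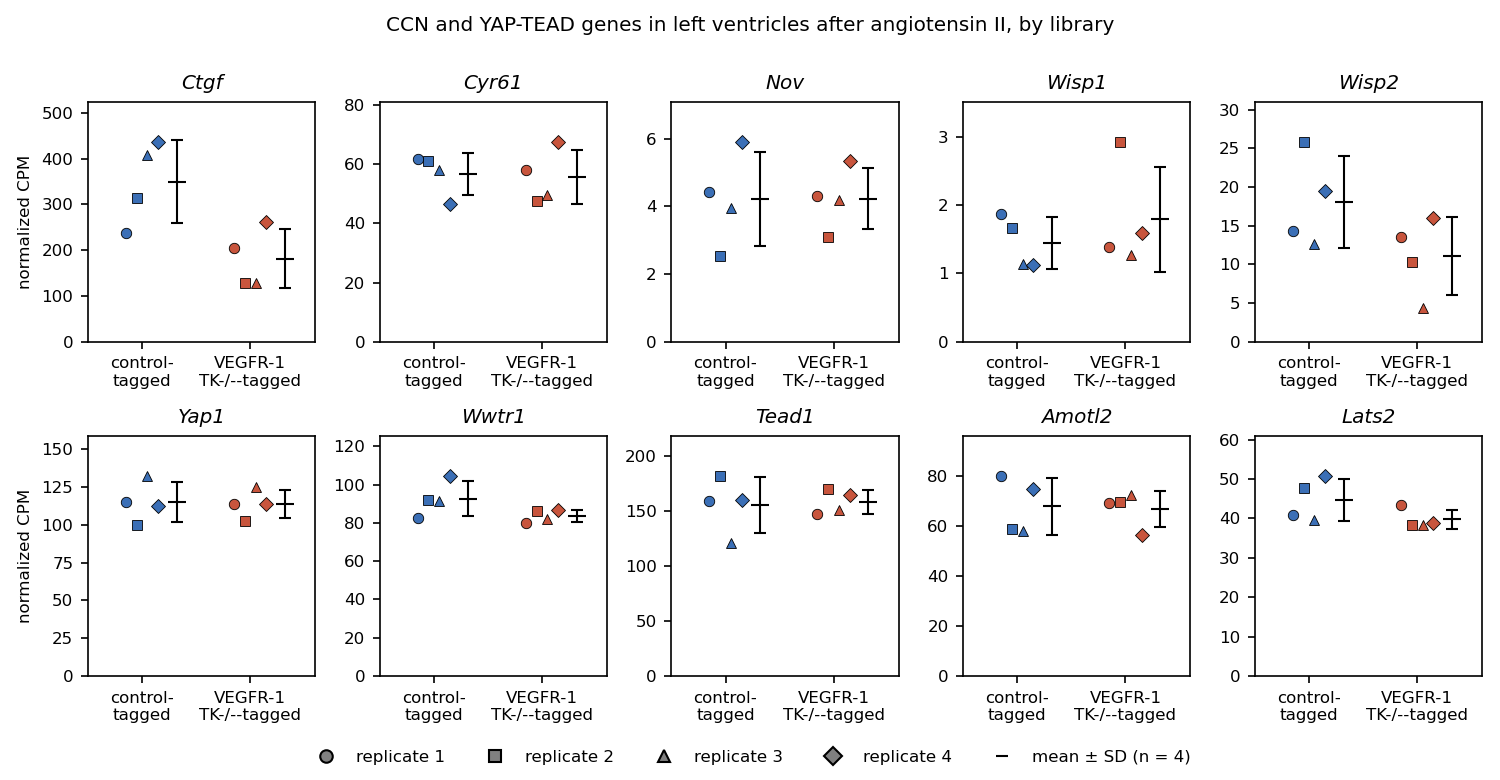
Normalised CPM (vertical axes, linear and starting at 0) of the 10 genes in each of the 4 control-tagged (blue) and 4 VEGFR-1 TK-/--tagged (red) libraries, with marker shapes for replicate numbers and black bars for mean ± SD. *Ctgf* shows the widest gap between the groups, with control-tagged replicate 1 (238) below TK-tagged replicate 4 (261), and the points of *Yap1*, *Tead1* and *Cyr61* are intermixed.

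*Ctgf* (ENSMUSG00000019997, also *Ccn2*, chromosome 10 of GRCm38, 24595442 to 24598683, plus strand) encodes connective tissue growth factor, a target of YAP-TEAD, TGF-β and angII signaling. Control-tagged replicates 1 to 4 had 238, 313, 408 and 437 normalised CPM of *Ctgf* RNA, and TK-tagged replicates 1 to 4 had 206, 129, 129 and 261. Replicates 2 and 3 of the TK-tagged group were the lowest of all libraries, and the groups overlapped in a single place, where control-tagged replicate 1 was below TK-tagged replicate 4. The means were 349 ± 90.9 and 181 ± 64.2 (SD, n = 4 per group), so that the TK-tagged mean was 51.9% of the control-tagged mean. The log2 fold change was −0.95 (SE 0.25, 95% confidence interval −1.48 to −0.41), with an FDR = 0.442 by the quasi-likelihood test (unadjusted p = 0.00244) and an exact 2-sided permutation p = 0.0571, where the smallest possible is 0.0286. It ranked 62 by p and 69 by lowest log2 fold change among the 13542 genes. *Ctgf* was called by DESeq2 (FDR = 0.0561), by the likelihood ratio test (FDR = 0.0587) and by the quasi-likelihood test without the filter on low counts (FDR = 0.0718). Over all 16 alternatives in test, normalisation, filter, block and libraries the FDR ranged from 0.0561 to 0.94 and the log2 fold change from −1.17 to −0.82, the highest FDR being that without TK-tagged replicate 2. An antisense gene, *Gm15270*, shares 665 exon bases with *Ctgf* and had a mean of 4.51 normalised CPM, and whether strand was used in the counting is not stated.

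*Cyr61* (ENSMUSG00000028195, also *Ccn1*, chromosome 3, 145646976 to 145649981, minus strand), the other CCN gene that serves as a standard readout of YAP-TEAD, encodes an angiogenic matrix protein that binds integrins. Its normalised CPM was 61.7, 60.8, 58.0 and 46.3 in the control-tagged replicates 1 to 4 and 58.1, 47.3, 49.6 and 67.5 in the TK-tagged replicates 1 to 4. The groups were intermixed, the highest and the lowest library being TK-tagged replicate 4 and control-tagged replicate 4. Its log2 fold change was −0.03 (SE 0.13, FDR = 0.968 by the quasi-likelihood test), and its 95% confidence interval from −0.31 to 0.26 leaves room for changes of up to 0.805-fold or 1.196-fold.

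The ratio of *Ctgf* to *Cyr61* within a library, which does not depend on the scaling of libraries, was 3.87, 5.15, 7.03 and 9.44 in the control-tagged and 3.54, 2.73, 2.60 and 3.86 in the TK-tagged replicates 1 to 4. The groups did not overlap, although control-tagged replicate 1 (3.865) and TK-tagged replicate 4 (3.861) nearly met. The difference of the mean log2 ratio was −0.94 (exact permutation p = 0.0286, the smallest possible, and 0.0857 after adjustment over the 3 ratios compared). Without any single TK-tagged library, replicate 1, 2, 3 or 4, the exact permutation p was 0.0571, and without any single control-tagged library it was 0.0286. Among the 5 CCN genes, *Ctgf* made up 67.6%, 71.0%, 79.5% and 81.2% of the summed normalised CPM per kb in the control-tagged replicates 1 to 4, and 65.7%, 59.7%, 61.2% and 67.5% in the TK-tagged ones.

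**Figure D2:**
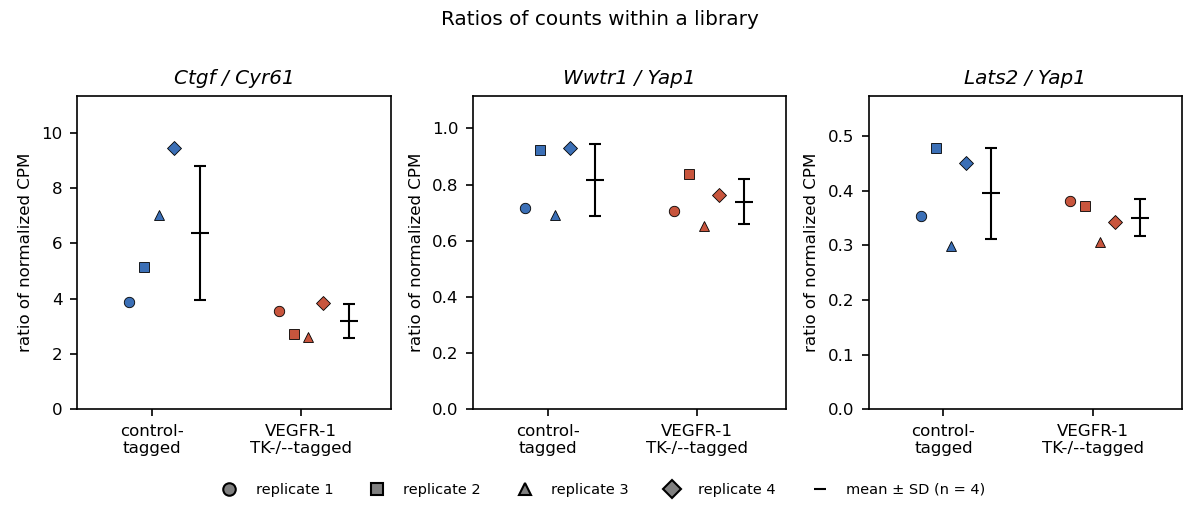
Ratios of normalised CPM within each library (vertical axes, linear, starting at 0) for *Ctgf* to *Cyr61*, *Wwtr1* to *Yap1* and *Lats2* to *Yap1*, with control-tagged libraries in blue, VEGFR-1 TK-/--tagged libraries in red and mean ± SD in black. In the first panel all TK-tagged libraries lie between 2.60 and 3.86 and all control-tagged libraries between 3.87 and 9.44, and in the other panels the groups overlap.

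*Wisp2* (ENSMUSG00000027656, also *Ccn5*, chromosome 2, 163820861 to 163833146, plus strand) encodes the CCN protein that lacks the C-terminal module of the others and has been described as opposing CTGF. Its normalised CPM was 14.4, 25.9, 12.6 and 19.5 in the control-tagged and 13.6, 10.4, 4.42 and 16.002 in the TK-tagged replicates 1 to 4. The groups overlapped, and TK-tagged replicate 3, with 56 reads, was far below the rest. The log2 fold change was −0.70 (SE 0.33, 95% confidence interval −1.42 to 0.01, FDR = 0.559 by the quasi-likelihood test, exact permutation p = 0.143). Without TK-tagged replicate 3 it was −0.44, and without control-tagged replicate 2 it was −0.48.

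The 2 remaining CCN genes had the lowest levels. *Nov* (ENSMUSG00000037362, also *Ccn3*, chromosome 15, 54745702 to 54754039, plus strand), which encodes a CCN protein of vessels and nervous tissue, had 4.21 ± 1.39 and 4.23 ± 0.912 normalised CPM (SD, n = 4 per group). Its log2 fold change of 0.02 had a 95% confidence interval from −0.54 to 0.58. *Wisp1* (ENSMUSG00000005124, also *Ccn4*, chromosome 15, 66891320 to 66923201, plus strand), known as a Wnt-induced CCN gene, had 1.45 ± 0.378 and 1.79 ± 0.769 normalised CPM (SD, n = 4 per group). Its log2 fold change of 0.29 (95% confidence interval −0.42 to 1.01) rested on TK-tagged replicate 2 with 33 reads, and was −0.04 without that library. On a linear scale the intervals ran from 0.686-fold to 1.49-fold for *Nov* and from 0.745-fold to 2.01-fold for *Wisp1*, so that changes within these bounds could not be told from no change with 4 libraries per group.

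The coactivator gene *Yap1* and its DNA-binding partner *Tead1* had nearly equal mean RNA levels in both groups. *Yap1* (ENSMUSG00000053110, chromosome 9, 7931999 to 8004596, minus strand) was at 115, 99.8, 132 and 113 normalised CPM in the control-tagged and at 113, 103, 125 and 114 in the TK-tagged replicates 1 to 4. The ranges lay within each other, and the log2 fold change of −0.01 (SE 0.10) had a 95% confidence interval from −0.24 to 0.21. *Tead1* (ENSMUSG00000055320, chromosome 7, 112679318 to 112906807, plus strand), the main TEAD factor of heart muscle, had 155 ± 25.5 and 158 ± 10.5 normalised CPM (SD, n = 4 per group) and a log2 fold change of 0.03 (95% confidence interval −0.24 to 0.29). Its lowest value, 121, was in control-tagged replicate 3, which had the highest *Yap1*, and its highest, 182, was in control-tagged replicate 2, which had the lowest *Yap1*.

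*Wwtr1*, the gene of TAZ (ENSMUSG00000027803, chromosome 3, 57455649 to 57575910, minus strand), was at 82.8, 92.0, 91.6 and 105 normalised CPM in the control-tagged and at 79.9, 86.1, 82.0 and 86.9 in the TK-tagged replicates 1 to 4. Of the control-tagged libraries 3 were above every TK-tagged library, and replicate 1 lay within their range. The log2 fold change was −0.15 (SE 0.09, 95% confidence interval −0.35 to 0.05, FDR = 0.66 by the quasi-likelihood test, exact permutation p = 0.0857). The log2 ratio of *Wwtr1* to *Yap1* differed by −0.13 between the groups (exact permutation p = 0.343, 0.40 after adjustment over the 3 ratios).

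**Figure D3:**
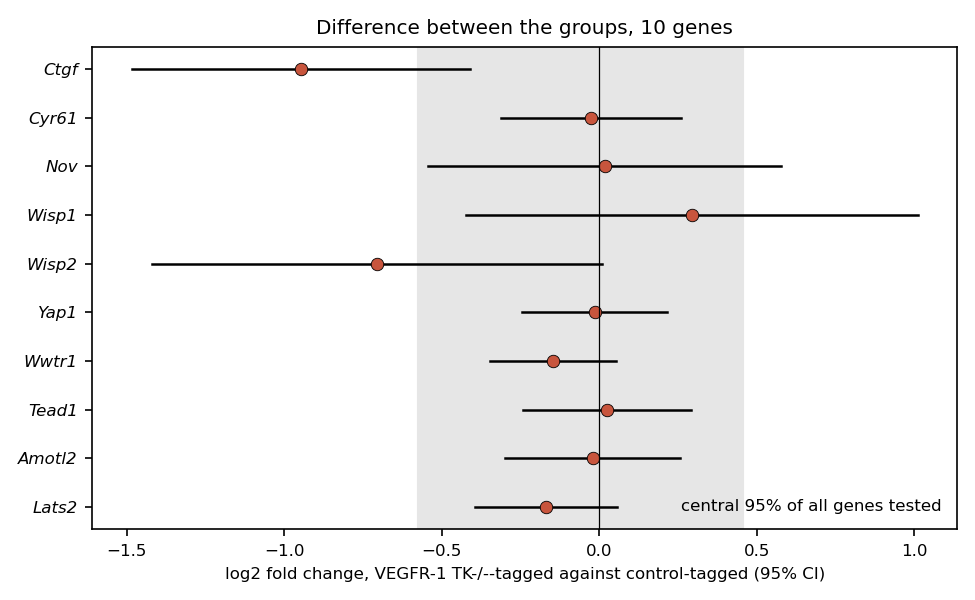
Log2 fold change of the VEGFR-1 TK-/--tagged against the control-tagged libraries (horizontal axis) for the 10 genes, with points for the estimate of the quasi-likelihood fit, lines for its 95% confidence interval, and a grey band for the central 95% of all 13542 genes tested (−0.58 to 0.46). *Ctgf* (−0.95) and *Wisp2* (−0.70) lie outside the band, and only the interval of *Ctgf* stays clear of 0.

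*Amotl2* and *Lats2* are both regulators and targets of YAP, and so form the negative feedback of the pathway: AMOTL2 is a junctional scaffold that holds YAP in the cytoplasm, and LATS2 is a kinase that phosphorylates it. *Amotl2* (ENSMUSG00000032531, chromosome 9, 102716672 to 102733418, plus strand) had 67.9 ± 11.3 and 66.9 ± 7.19 normalised CPM (SD, n = 4 per group) and a log2 fold change of −0.02 (95% confidence interval −0.30 to 0.26). *Lats2* (ENSMUSG00000021959, chromosome 14, 57689662 to 57758388, minus strand) was at 40.7, 47.6, 39.6 and 50.8 normalised CPM in the control-tagged and at 43.3, 38.3, 38.4 and 38.9 in the TK-tagged replicates 1 to 4. Apart from replicate 1, the TK-tagged libraries lay just below the lowest control-tagged one. Its log2 fold change was −0.17 (SE 0.10, 95% confidence interval −0.39 to 0.06, FDR = 0.651 by the quasi-likelihood test, exact permutation p = 0.171), and the log2 ratio of *Lats2* to *Yap1* differed by −0.15 (exact permutation p = 0.40). A protein-coding gene on the same strand, *Gm49361*, shares 2955 of the 6971 exon bases of *Lats2*. It is not among the genes counted, so its level was not measured. Any reads from it in those bases may be included in *Lats2*.

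TEAD factors recognise the core CATTCC, which reads GGAATG on the other strand. RefSeq windows of GRCm38.p6 from 250 bases before to 50 after an annotated transcript start were matched for 5 of the 10 genes, namely *Cyr61*, *Yap1*, *Wwtr1*, *Amotl2* and *Lats2*. All 5 held the core on either strand in at least 1 window, whereas 14.7% of the 32851 windows of the same length did, and 16.6% of the 27025 genes with a window. The 250 bases before the start of *Cyr61*, the readout gene of the pathway, are shown with the core in capitals, and for the other genes the 30 bases around it. They are given on the strand of the gene, with positions counted from the start.
Cyr61, chr3:145649986-145650235, minus strand, core at −103: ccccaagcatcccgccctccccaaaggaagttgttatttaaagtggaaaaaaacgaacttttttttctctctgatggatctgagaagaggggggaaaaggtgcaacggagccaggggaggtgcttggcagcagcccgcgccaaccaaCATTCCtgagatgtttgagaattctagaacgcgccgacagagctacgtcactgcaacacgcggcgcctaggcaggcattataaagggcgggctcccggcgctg
Amotl2, chr9:102717727-102717756, plus strand, core at −65: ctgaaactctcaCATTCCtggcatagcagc
Lats2, chr14:57746102-57746131, minus strand, core at 5: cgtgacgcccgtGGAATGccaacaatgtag
Yap1, chr9:8004720-8004749, minus strand, core at −141: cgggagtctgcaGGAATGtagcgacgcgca
Wwtr1, chr3:57576029-57576058, minus strand, core at −136 or −170 from its 2 starts: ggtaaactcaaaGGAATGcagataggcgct
A match of 6 letters is a description of the sequence and not a measured site. The 5 genes with a matched window had log2 fold changes between −0.17 and −0.01. *Ctgf*, *Nov*, *Wisp1*, *Wisp2* and *Tead1* had no matched window and were not searched. The core can therefore not be set against the log2 fold changes.

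The other genes of the pathway were read from lists, with no gene called by the quasi-likelihood test. The counts of each list stand against all genes tested, of which 50.3% were lower, 5.64% were lower with an unadjusted p under 0.05 and 3.32% were higher with one. Of the 14 genes of the Hippo kinase cascade and its scaffolds, all 14 passed the filter, 7 were lower and 7 higher, and their median log2 fold change was −0.01. *Map4k4*, a kinase that acts upstream of LATS, was the only one with an unadjusted p under 0.05. Its normalised CPM was 175, 165, 224 and 180 in the control-tagged and 142, 149, 160.2 and 165 in the TK-tagged replicates 1 to 4, and its log2 fold change was −0.27 (SE 0.11, FDR = 0.521). The core kinases *Stk3*, *Stk4* and *Lats1* had log2 fold changes of 0.04, 0.10 and 0.09.

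Of 13 genes of TEAD factors and of binding partners of YAP and TAZ, 11 passed the filter, with 10 lower and 1 higher and a median log2 fold change of −0.22. *Ajuba*, a LIM protein that binds and restrains LATS kinases, was the only one with an unadjusted p under 0.05. It was at 13.3, 16.5, 12.1 and 14.6 normalised CPM in the control-tagged and at 10.6, 8.07, 10.02 and 10.5 in the TK-tagged replicates 1 to 4, so that the groups did not overlap. The log2 fold change was −0.53 (SE 0.14, FDR = 0.442 by the quasi-likelihood test, unadjusted p = 0.00273). The factors *Tead2*, *Tead3* and *Tead4* had log2 fold changes of −0.28, −0.02 and 0.09.

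Of 17 further target genes of YAP and TAZ, 16 passed the filter, with 13 lower and 3 higher and a median log2 fold change of −0.21. An unadjusted p under 0.05 was found in 2 of them, both lower, against 5.64% of all genes in that direction. *Ankrd1*, a stretch-responsive protein of the sarcomere, had 3851 ± 554 and 2175 ± 583 normalised CPM (SD, n = 4 per group) with a log2 fold change of −0.82 (FDR = 0.442), and was the 1 list gene called by the likelihood ratio test, DESeq2 and the test on unfiltered genes. *Tgfb2*, a TGF-β ligand, had 20.2 ± 5.27 and 13.6 ± 3.79 normalised CPM (SD, n = 4 per group), overlapping groups and a log2 fold change of −0.57 (FDR = 0.508). The other targets did not share a size, from −0.42 in *Myof* to 0.35 in *Dock5*.

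Of 14 genes of CCN receptors 12 passed the filter, all of them lower on average in the TK-tagged libraries, with a median log2 fold change of −0.19, and 3 had an unadjusted p under 0.05. Over all genes 50.3% were lower, and 5.64% were lower with such a p. The lean was not particular to the receptors, since 8 of 8 fibroblast and 7 of 8 leukocyte markers were also lower. Of 8 cardiomyocyte markers 6 were higher. *Notch1*, a receptor bound by NOV, was at 84.7, 86.6, 106 and 101 normalised CPM in the control-tagged and at 73.4, 65.4, 79.7 and 74.5 in the TK-tagged replicates 1 to 4, without overlap (log2 fold change −0.37, SE 0.10, FDR = 0.442). *Lrp1*, an endocytic receptor of CTGF, and *Itgam*, the integrin chain of myeloid cells, had overlapping groups and log2 fold changes of −0.36 and −0.58. The integrin chains *Itgav*, *Itgb3* and *Itgb5* had log2 fold changes of −0.03, −0.02 and −0.18. Of the inducers of CCN genes, 13 of 14 were in the table and 12 passed the filter, with 9 lower, 3 higher, a median log2 fold change of −0.14 and none with an unadjusted p under 0.05. They included the angII receptor gene *Agtr1a*, with a log2 fold change of 0.04, and *Tgfb1*, with −0.20.

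**Figure D4:**
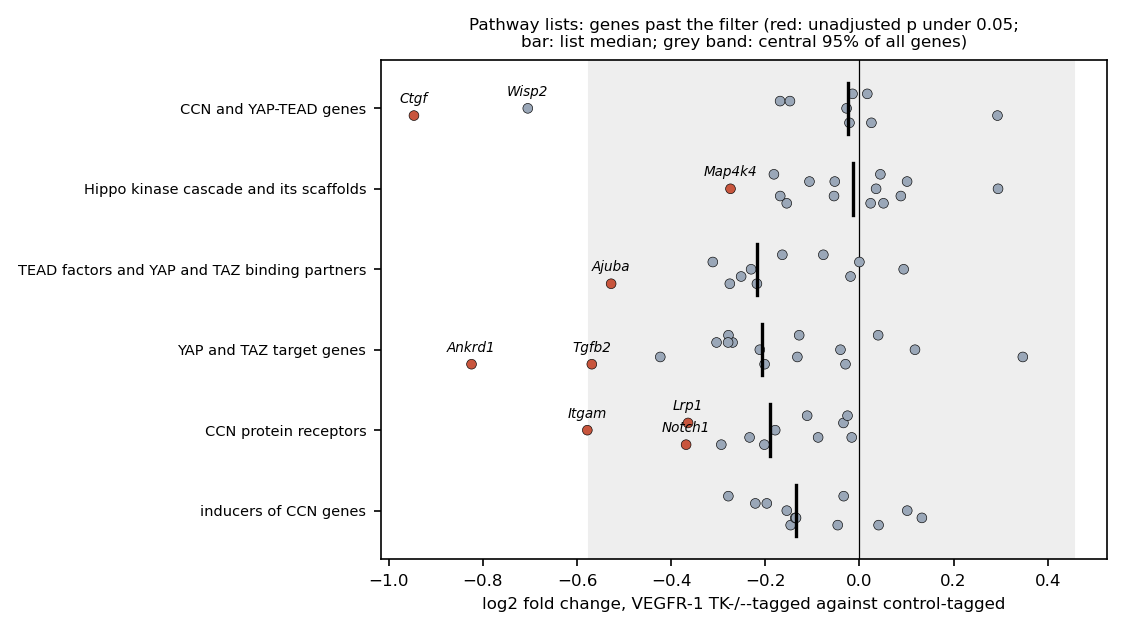
Log2 fold change of the VEGFR-1 TK-/--tagged against the control-tagged libraries (horizontal axis) for each gene past the filter in the 10 CCN and YAP-TEAD genes and 5 pathway lists, with red points for an unadjusted p under 0.05, black bars for list medians and a grey band for the central 95% of all genes tested. Every red point lies below 0, from *Ctgf* at −0.95 to *Map4k4* at −0.27, where all genes had 764 lower and 449 higher with such a p, and the list medians run from −0.22 to −0.01.

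Most markers on the lists of fibroblasts, endothelium, smooth muscle and pericytes, and leukocytes had lower means in the same group as *Ctgf* and *Wisp2*. None was called, and the sums overlapped between the groups. All 8 of 8 fibroblast markers had a lower mean in the TK-tagged libraries, and their summed normalised CPM ran from 1624 to 2518 in the control-tagged and from 824 to 2100 in the TK-tagged group. For 8 markers of activated fibroblasts, again all lower on average, the sums ran from 534 to 852 and from 321 to 800.5. TK-tagged replicates 2 and 3, the libraries with the lowest *Ctgf*, also had the lowest sums of both lists. Of the 8 endothelial and the 8 smooth muscle and pericyte markers 7 and 6 were lower, with sums of 1469 to 1868 against 1342 to 1496 and of 1052 to 1528 against 762 to 1071 normalised CPM. Within the latter list *Kcnj8*, *Pdgfrb*, *Notch3* and *Rgs5*, the largest part of the sums, had log2 fold changes of −0.65, −0.54, −0.50 and −0.48. *Myh11*, *Tagln*, *Cnn1* and *Mylk* had −0.02, 0.0014, 0.04 and −0.15. Of 8 leukocyte markers 7 were lower, with sums of 387 to 508 against 259.9 to 399. An unadjusted p under 0.05 by the quasi-likelihood test was found in 4 endothelial and 4 smooth muscle and pericyte markers, all lower. It was also found in 1 activated fibroblast and 1 leukocyte marker, both lower, and in 0 fibroblast markers. Over all genes 5.64% were lower and 3.32% higher with such a p. No marker of these 5 lists was at 0. Of 8 cardiomyocyte markers 6 had a higher mean, 2 of them with an unadjusted p under 0.05, at a median log2 fold change of 0.18, and their sums ran from 64781 to 100950.1 and from 83528 to 103891 normalised CPM. The sums of epicardial markers, 22.2 to 74.5 and 24.5 to 73.2, covered nearly the same range. In bulk tissue, fewer cells of a type and less RNA per cell cannot be told apart.

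Divided within each library by the summed fibroblast markers, *Ctgf* differed by −0.56 on the log2 scale between the groups (exact permutation p = 0.229). Against activated fibroblast markers it differed by −0.42 (exact permutation p = 0.143), against endothelial markers by −0.70 (exact permutation p = 0.0857), against smooth muscle and pericyte markers by −0.55 (exact permutation p = 0.143) and against cardiomyocyte markers by −1.08 (exact permutation p = 0.0571). For *Wisp2* these differences were −0.39, −0.25, −0.53, −0.38 and −0.90. These divisions were chosen after the values were seen, and the part of cell composition in the lower *Ctgf* was not tested.

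Between libraries, most of the 10 genes varied without a shared pattern. Over the 45 pairs of genes, Pearson's r of log2 normalised CPM ran from −0.89 to 0.74 over 8 libraries, 3 pairs had an unadjusted exact permutation p of r under 0.05 and 0 pairs had a p under 0.05 after adjustment over all 45, the lowest being 0.0871. *Yap1* and *Tead1* were opposed, with r = −0.89 (exact permutation p = 0.00193, adjusted 0.0871) and Spearman's rho = −0.81 (exact permutation p = 0.0218, adjusted 0.419). After the group means were removed r was −0.89, and without control-tagged replicates 2 and 3, the libraries farthest from the median of *Yap1*, it was −0.69. *Ctgf* ran with *Wwtr1* (r = 0.74, exact permutation p = 0.0305, adjusted 0.477, and rho = 0.81, exact permutation p = 0.0218, adjusted 0.419). Without TK-tagged replicates 2 and 3 this r was 0.92, and with the group means removed it was 0.53.

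*Ctgf* also ran with *Wisp2* (r = 0.72, exact permutation p = 0.0318, adjusted 0.477, and rho = 0.69, exact permutation p = 0.0694, adjusted 0.625), but r was 0.27 without TK-tagged replicates 2 and 3, so that this relation rests on those libraries. *Ctgf* and *Cyr61* had r = 0.26 (exact permutation p = 0.516, adjusted 0.86) and rho = 0.02 (exact permutation p = 0.977, adjusted 0.977), and r turned to −0.62 without TK-tagged replicates 2 and 3.

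**Figure D5:**
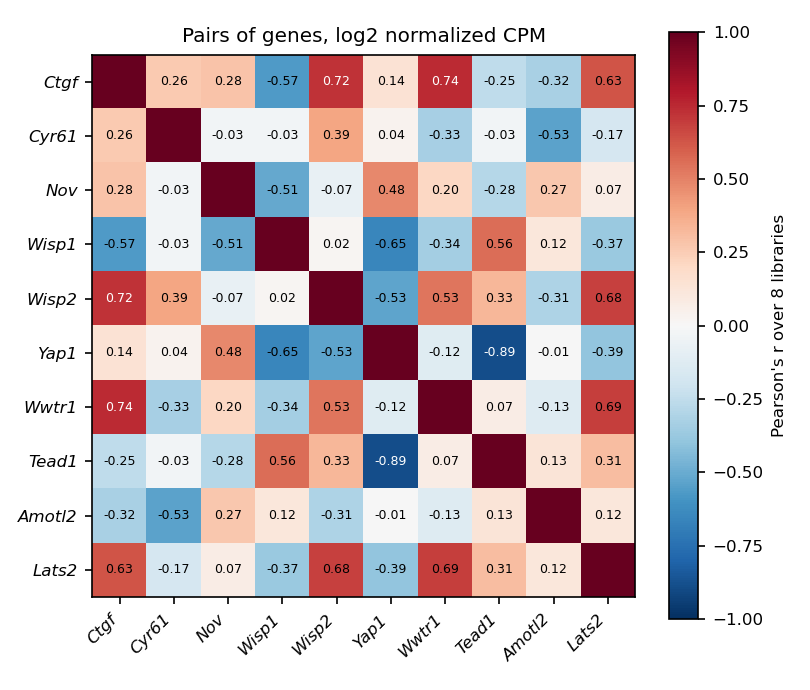
Pearson's r of log2 normalised CPM over the 8 libraries for each pair of the 10 genes, from −1 in blue to 1 in red, with the value written in each cell off the diagonal. The strongest cell is *Yap1* with *Tead1* at −0.89, and *Ctgf* has its highest values with *Wwtr1* (0.74) and *Wisp2* (0.72).

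Among 8873 genes with a mean of at least 10 normalised CPM, likeness to *Ctgf* and *Cyr61* was measured as the root mean square difference of standardised log2 profiles over the 8 libraries, 0 meaning the same profile. The profiles most like *Ctgf* were those of *Smoc2* (0.196), *Ddah2* (0.199) and *Csf1r* (0.224). *Smoc2*, a matricellular calcium-binding protein, was at 99.7, 119, 128 and 129 normalised CPM in the control-tagged and at 96.6, 84.9, 84.1 and 116 in the TK-tagged replicates 1 to 4. It had the same lowest libraries as *Ctgf*, over a narrower range. *Csf1r*, a receptor of macrophages, is also on the leukocyte list. The profiles most like *Cyr61* were those of *Tbccd1* (0.387), *Alg9* (0.414) and *Serpinb9* (0.421), each less alike than the 3 of *Ctgf*. The 6 genes were picked for likeness over all libraries, so their own differences between the groups add no evidence.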

How the data were processed

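RNA of the LVs was sequenced in 8 libraries, 4 per genotype tag. Per the methods and notes of the authors, reads were trimmed (Trim Galore 0.4.4), mapped to GRCm38 (STAR 2.5.4b) and summed over GENCODE genes (featureCounts). The deposited table holds raw counts per gene without normalisation. The kit was stranded and STAR kept reads with several alignments, but whether strand or such reads entered the counting is not given in the sources used here, so that antisense or paralogous reads may be included. The labels name ribosomal RNA depletion and the methods of the study name poly-A selection. The library names refer to cardiomyocytes, whereas the methods describe LV tissue. The 13542 of 46040 genes that reached a CPM of 1 in 2 or more libraries were scaled by TMM and tested with the quasi-likelihood test of edgeR 4.0.16 in R 4.3.3 on all libraries. Normalised CPM values are per TMM-adjusted total, and a prior count of 2 was added before logs were taken. A call needed an FDR under 0.1 and a 1.5-fold change. Confidence intervals came from the same fit. Single values were compared with exact 2-sided permutation tests over the 70 assignments of libraries to groups. Other settings tried were DESeq2 1.42.0, the likelihood ratio test, RLE factors, total counts, no filter, filterByExpr, a robust fit, a replicate block and leaving out each library. The code was tested on simulated data.

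The 10 genes and all lists were chosen with earlier results of these data known. Named genes are the 10 genes, *Flt1*, list genes with an FDR under 0.1 or otherwise up to 5 per list with the lowest unadjusted p under 0.05, and the 3 profiles most like *Ctgf* and *Cyr61*. Other list genes and marker genes with values were named after these were seen. Lengths, coordinates and overlaps come from GENCODE M21 on GRCm38, and *Ctgf* is listed there as *Ccn2*. Pairs of libraries of a group differed beyond sampling noise, the chi-square divided by its degrees of freedom being 6.77 to 49.9. *Mrtfa*, listed also as *Mkl1*, and *Ahsp* were not analysed under these names here. The sums of epicardial, atrial, red blood cell and adipocyte markers overlapped between the groups. The adipocyte sums were almost only *Fabp4* and the atrial sums mostly *Clu* and *Nppa*, so overlap there cannot compare adipocyte or atrial content. Those of skeletal muscle markers ran from 7099 to 10610 and from 4833 to 6256 normalised CPM without overlap. The gap lay in *Acta1*, with means of 4764 and 1674 and a log2 fold change of −1.51. *Ckm*, *Mylpf*, *Tnni2* and *Tnnt3* had −0.09, −0.05, −0.17 and 0.35, and *Myh1*, *Myh4* and *Pvalb* did not pass the filter.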

Additional observations from a re-analysis of the deposited data

Results flagged for a closer look

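*Lats2* in VEGFR-1 TK-/--tagged replicate 1, with 43.3 normalised CPM, stood apart from the other 3 libraries of its group, at 38.3 to 38.9 normalised CPM. The gap took up 0.876 of the range of the group, above Dixon's 95% critical value for 4 samples. It was the only such library in 52 groups of 4 values examined, and chance alone gives about 5% of groups.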

How the results depend on the processing

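*Ctgf*, *Wisp2*, *Wwtr1* and *Lats2* kept a negative log2 fold change under all 16 alternatives. The number of all genes called was 53 by the likelihood ratio test, 32 by DESeq2, 23 with no filter on low counts and 1 to 3 when a library was left out. Under each of the first 3 settings 1 of the 10 genes (*Ctgf*) and 1 gene of the pathway lists (*Ankrd1*) was called, against 0 in the reported test. When each of the 8 libraries was left out, 0 of the 10 genes and 0 of the list genes were called. The number of the 10 genes with an unadjusted p under 0.05 was 2 by the likelihood ratio test, by DESeq2, with no filter and with the replicate number as a block, *Wisp2* being added each time. It was 1 to 3 when a library was left out, at 3 without control-tagged replicate 3 and at 2 without replicate 1 of either group or VEGFR-1 TK-/--tagged replicate 4. The replicate block gave *Ctgf* a log2 fold change of −0.97 (FDR = 0.341) and changed no call. The numbers did not pair the libraries, since same-numbered libraries had correlations from −0.055 to 0.343 and 2 of 8 libraries were most like their own number.

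The other 6 of the 10 genes changed sign under some setting. With each library left out in turn, they ran from −0.13 to 0.040 in *Cyr61*, from −0.16 to 0.22 in *Nov*, from −0.040 to 0.43 in *Wisp1*, from −0.077 to 0.058 in *Yap1*, from −0.082 to 0.11 in *Tead1* and from −0.093 to 0.065 in *Amotl2*. With total counts *Tead1* was at −0.0040. The cause was not tested.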
